A study of Mus musculus with 6 samples.

Results

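Cyp1b1 encodes a cytochrome P450 enzyme, and its gene is a classical target of the aryl hydrocarbon receptor (AHR). It is described here together with the receptor gene Ahr, its partner gene Arnt and the 3 further target genes Cyp1a1, Tiparp and Aldh3a1. These 6 genes were chosen by name, and the choice was made with an earlier result of the same comparison known, a far lower Cyp1b1 signal after palmitate. Their palmitate and BSA values are therefore given as a description. How many of them passed the threshold of the fit across all probe sets is stated once, and nothing is read from it. The array held 12 probe sets annotated to these 6 genes alone, of 22626 probe sets that were not controls. A probe set is a group of short probes read together as 1 value. Of the 12, 8 passed the intensity filter (a mean log2 signal over the 6 arrays equal to a signal of 267.1) and 4 did not, so that 5 of the 6 genes had a probe set above it and Cyp1a1 had none.

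Myotubes of the mouse line C2C12 were compared in 2 groups of 3 arrays. The palmitate group received 500 µM palmitate, a saturated fatty acid, for 16 h, and the BSA group received 1% bovine serum albumin (BSA) for 16 h. BSA is the usual carrier of palmitate, but the labels do not say whether the palmitate medium held it. In both groups myoblasts had been grown in 20% fetal bovine serum and then switched to 2% horse serum, in which they differentiated for 5 days. C2C12 is an established line of immortalised myoblasts, so every array comes from the same line, and unfused mononucleated cells remain in such cultures. Replicates carry numbers, with no statement that they came from separate cultures, so the spread between these arrays may be technical. An SD below is the spread of the arrays of a group. An SE from limma is not that spread alone. The method draws the variance of each probe set towards that of probe sets of similar signal.

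As background, AHR is a transcription factor of the bHLH-PAS family that rests in the cytosol with HSP90 chaperones until a ligand such as a dioxin, a polycyclic hydrocarbon or a tryptophan metabolite binds it. It then enters the nucleus, pairs with ARNT and binds response elements with the core GCGTG near genes of xenobiotic metabolism. Cyp1a1 is the textbook reporter of this step. CYP1B1 oxidises polycyclic hydrocarbons, oestradiol, retinol and arachidonate, and outside the liver it is known from mesenchymal and steroid-forming cells, where it is made without an added ligand. TIPARP is a mono-ADP-ribosyltransferase that acts back on AHR as a repressor, and ALDH3A1 oxidises aldehydes.

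The promoter stretches just upstream of Cyp1b1, Tiparp and Cyp1a1 are shown because all 3 are AHR targets, yet the first 2 had opposite differences after palmitate and Cyp1a1 was dim in both groups. Each stretch is the 250 bases before the transcript start, read 5′ to 3′ on the strand of the gene from RefSeq, mouse build GRCm38.p6. Capitals mark the AHR core, GCGTG or its reverse complement CACGC, and in Cyp1a1 also the TATA box letters TATAAA. The stretches are chr17:79715062-79715311 on the minus strand for Cyp1b1, chr3:65528197-65528446 on the plus strand for Tiparp and chr9:57697363-57697612 on the plus strand for Cyp1a1.
Cyp1b1: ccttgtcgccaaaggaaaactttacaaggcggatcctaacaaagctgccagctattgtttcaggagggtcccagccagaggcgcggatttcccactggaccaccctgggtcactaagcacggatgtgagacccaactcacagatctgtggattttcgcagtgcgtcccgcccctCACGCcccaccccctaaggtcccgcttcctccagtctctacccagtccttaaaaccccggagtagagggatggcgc
Tiparp: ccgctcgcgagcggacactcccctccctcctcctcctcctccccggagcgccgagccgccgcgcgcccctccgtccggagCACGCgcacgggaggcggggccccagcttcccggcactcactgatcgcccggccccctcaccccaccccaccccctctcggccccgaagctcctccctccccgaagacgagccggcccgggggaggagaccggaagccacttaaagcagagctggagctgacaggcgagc
Cyp1a1: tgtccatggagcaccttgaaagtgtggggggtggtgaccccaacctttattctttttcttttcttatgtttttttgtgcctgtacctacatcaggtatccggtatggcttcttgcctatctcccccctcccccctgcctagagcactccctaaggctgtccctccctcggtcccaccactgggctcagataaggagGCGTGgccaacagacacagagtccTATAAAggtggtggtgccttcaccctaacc
The core began 76 bases before the start in Cyp1b1 and 170 bases before it in Tiparp, on the reverse strand in both, and 54 bases before it in Cyp1a1 on the strand shown. In Arnt it began 29 bases before the start. All 4 member promoters that matched thus held the core once, searched on both strands. Of 32851 mouse promoter stretches of the same length, 28.2% held it. The TATAAA letters were present in Cyp1a1 alone of the 4, and in 12.4% of all stretches. Promoters of Ahr and Aldh3a1 were not used here. The known AHR enhancers of Cyp1a1 and Cyp1b1 lie further upstream than this window, and a match of letters shows no binding.

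Over the 13575 probe sets above the filter, the log2 signals of 2 arrays had an r of 0.943 to 0.959 within a group and of 0.883 to 0.910 across groups. The deposited arrays had been scaled to equal average signal. The 18 probe sets for RNAs added before hybridisation were brighter on the palmitate arrays, at a mean log2 signal of 12.84 ± 0.11, against 12.55 ± 0.10 on the BSA arrays (SD, n = 3 each, exact permutation p = 0.1, two-sided, the smallest that 3 arrays against 3 allow). Scaling to these controls lowers every log2 fold change by the difference, 0.30. The Gapdh 3′ over 5′ signal ratio, a measure of RNA integrity taken in log2, was lowest on palmitate replicate 2 (-0.20, against 0.19 and 0.22 on the other palmitate arrays and 0.21 to 0.35 on the BSA arrays). Markers of muscle were present in both groups. Of 12 myotube markers 12 passed the filter. Of these 0 were called different, beside 20.2% of all genes tested, and 1 had an unadjusted limma p under 0.05. Each of these markers was brighter on BSA replicate 1 than on the other BSA arrays. The troponin gene Tnnt3 read 16419, 8807.5 and 8407 on the BSA arrays. The summed signal of the 12 ran from 129023 to 208125 on the BSA arrays and from 145650 to 153996 on the palmitate arrays. A difference within that spread would not have been called. Acta1, skeletal muscle actin, had signals of 44285, 40256 and 45212 on the palmitate arrays and 49212, 40038 and 34426 on the BSA arrays.

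Cyp1b1 was much lower after palmitate on both of its bright probe sets. Probe set 1416612_at read 2111, 828.1 and 976.9 on the palmitate arrays and 10671, 17866 and 13855 on the BSA arrays. The groups lay far apart, with the dimmest BSA array still 2.34 log2 units above the brightest palmitate array, and palmitate replicate 1 stood above the other palmitate arrays. The log2 fold change, palmitate over BSA, was -3.53 ± 0.30 (SE from limma, n = 3 per group), which is a signal 11.6 times higher in BSA. By this value Cyp1b1 was number 3 from the lowest of 7931 genes, each represented by its brightest probe set. Leaving out 1 array at a time moved it between -3.94 and -3.27. Fewer cells that make Cyp1b1 and less of its RNA per cell cannot be told apart in these bulk samples.

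Probe set 1416613_at, designed on the same source sequence, read 531.2, 400.2 and 272.6 on the palmitate arrays and 2280, 3997 and 5012 on the BSA arrays. Again the groups did not overlap, and the log2 fold change was -3.21 ± 0.31. Over the 6 arrays its log2 signal followed that of 1416612_at with r = 0.976, a value set mainly by the group difference they share. The third probe set, 1432081_at, comes from another cDNA and was below the filter. It read 77.4, 203.4 and 208.0 on the palmitate arrays and 42.7, 194.1 and 244.0 on the BSA arrays. Its groups overlapped throughout, at a log2 fold change of 0.23 ± 0.83, so it carried no sign of the difference seen on the bright probe sets.

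**Figure D1:**
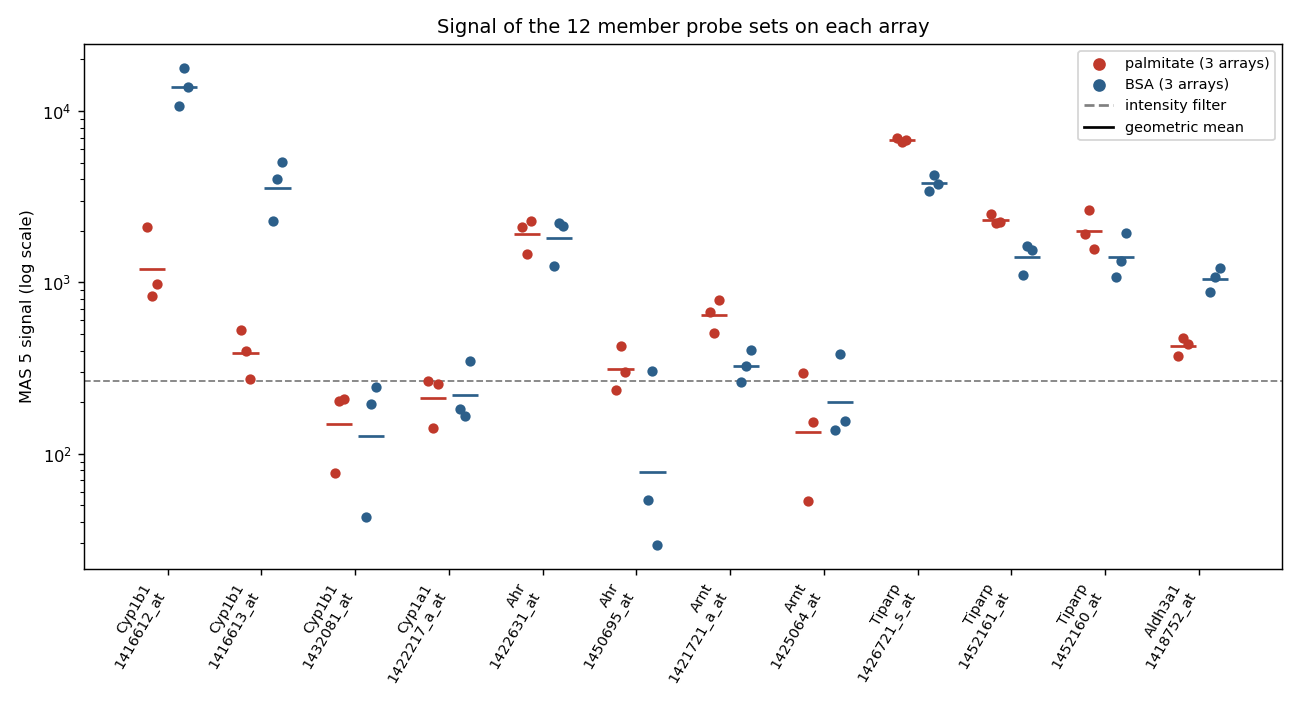
MAS 5 signal (log axis) of each of the 12 probe sets of the 6 genes, with 3 palmitate arrays on the left and 3 BSA arrays on the right of each pair, short lines for geometric means and a dashed line for the intensity filter at 267.1. The bright Cyp1b1 probe sets and Aldh3a1 are lower on all palmitate arrays, Tiparp is higher on 2 of its 3 probe sets without overlap, and Cyp1a1 and the dimmest probe sets of Cyp1b1, Ahr and Arnt lie around or under the filter.

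Among the other target genes, Aldh3a1 shared the direction of Cyp1b1. Its single probe set read 370.4, 473.4 and 439.9 on the palmitate arrays and 875.1, 1075 and 1211 on the BSA arrays. All palmitate values were lower than all BSA values, with a log2 fold change of -1.29 ± 0.25, or a signal 2.45 times higher in BSA. Tiparp went the other way. Its brightest probe set read 6987, 6573 and 6774 on the palmitate arrays and 3427, 4240 and 3729 on the BSA arrays, with no overlap and little spread within the palmitate group. The log2 fold change was 0.84 ± 0.14, or 1.79-fold higher with palmitate. The probe sets 1452161_at (0.73 ± 0.19, no overlap) and 1452160_at (0.51 ± 0.25, overlapping) had the same direction. The suffix of the brightest Tiparp probe set, 1426721_s_at, marks probes that can match more than 1 transcript.

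Cyp1a1 was dim in both groups. It read 265.0, 140.8 and 254.9 on the palmitate arrays and 182.3, 166.6 and 346.5 on the BSA arrays, under the filter on average. The groups overlapped fully, at a log2 fold change of -0.05 ± 0.57. With detection calls not used here, a Cyp1a1 transcript at this level was not told apart from background. A difference as large as this error, or somewhat larger, would not have been detectable either.

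The receptor gene itself had similar signals in both groups. Ahr probe set 1422631_at read 2098, 1463 and 2297 on the palmitate arrays and 1247, 2230 and 2125 on the BSA arrays. The ranges overlapped almost completely, at a log2 fold change of 0.08 ± 0.25, and leaving out 1 array at a time gave -0.18 to 0.28. The second Ahr probe set, 1450695_at, was below the filter and scattered. It read 235.1, 426.2 and 302.1 on the palmitate arrays and 54.1, 303.0 and 29.5 on the BSA arrays, so that its log2 fold change of 1.99 ± 0.85 rests on 2 very dim BSA values and the groups overlapped.

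Arnt, the nuclear partner, was higher after palmitate on its brighter probe set. Probe set 1421721_a_at read 668.1, 504.1 and 788.5 on the palmitate arrays and 263.9, 327.5 and 403.9 on the BSA arrays. The groups did not overlap, at 0.98 ± 0.32, although the nearest values of the groups were 0.32 log2 units apart and the BSA values lay close to the filter. The dimmer 1425064_at, below the filter, had the opposite sign with overlapping groups (-0.59 ± 0.77), reading 296.0, 52.8 and 153.7 on the palmitate arrays and 137.0, 382.9 and 155.1 on the BSA arrays. The 2 probe sets of Arnt and of Ahr therefore did not give the same value for their gene.

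**Figure D2:**
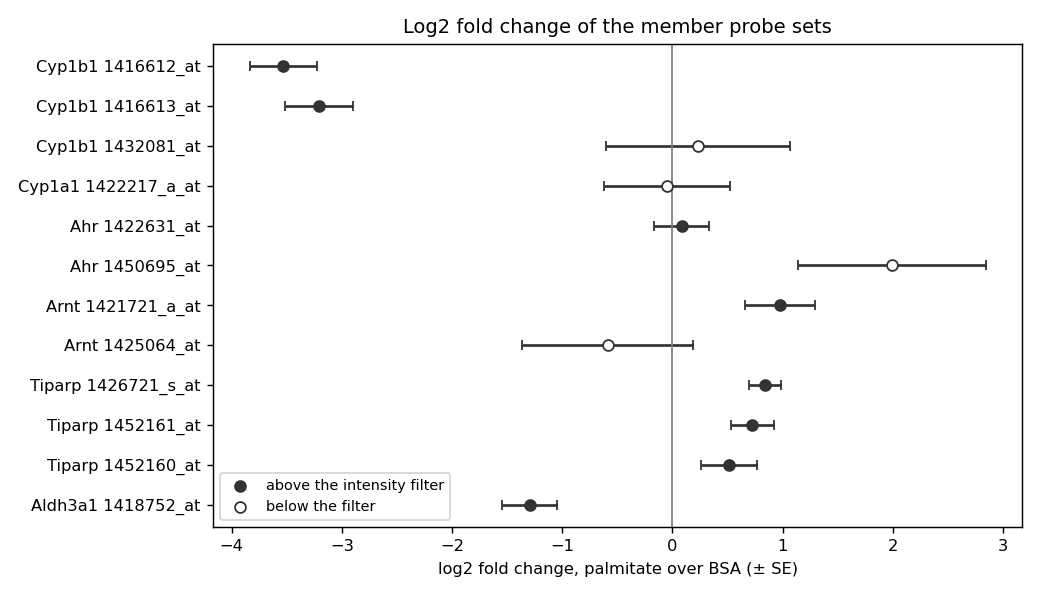
Log2 fold change, palmitate over BSA, with its SE for each member probe set (n = 3 arrays per group), filled where the probe set passed the intensity filter and open where it did not. The bright Cyp1b1 probe sets lie at -3.53 and -3.21, Aldh3a1 at -1.29, Tiparp at 0.51 to 0.84, and the open points have SEs of 0.57 to 0.85.

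The scale factor of an array cancels when 1 gene is subtracted from another on the same array. The difference in log2 fold change between Cyp1b1 and Tiparp was -4.37, that between Cyp1b1 and Ahr -3.62 and that between Cyp1b1 and Aldh3a1 -2.24, each from the brightest probe sets and each with no overlap between palmitate and BSA arrays. Cyp1b1 thus stood lower after palmitate relative to every other member, also relative to Aldh3a1. Ahr against Arnt gave -0.89 without overlap, and Arnt against Tiparp 0.14 with overlap.

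In the fit across all probe sets, 5 of the 8 member probe sets above the filter passed the threshold (limma adjusted p under 0.05), 3 lower and 2 higher, against 19.2% of 13575 probe sets in either direction (8.63% higher and 10.6% lower). The 3 lower ones were the bright Cyp1b1 probe sets and Aldh3a1, and the 2 higher ones were the brighter Tiparp probe sets. The groups did not overlap for 6 of the 12 member probe sets, against 27.6% of all 22626, and these 6 were among the 8 above the filter, against 37.2% of the 13575. Nothing is read from these shares, since the members were chosen on this comparison.

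A set of 10 gene lists around the receptor and its enzymes was counted in the same fit, each gene by its brightest probe set and with the 6 members left out. Of 7931 genes tested, 20.2% were called, 7.92% higher and 12.3% lower, with a median log2 fold change of -0.05. The lists were written with earlier results of these data known. Values in the following paragraphs are log2 fold changes of palmitate over BSA with limma's SE (3 arrays a group) unless called signals.

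Of 12 tested chaperones, co-activators and partners of the AHR complex, 2 passed the test, beside the 20.2% of all genes. Hsp90aa1 (0.71 ± 0.14, adjusted p = 0.00428), the stress-inducible HSP90 chaperone, and Relb (0.88 ± 0.21, adjusted p = 0.0132), an NF-kB subunit that can pair with AHR, rose and 0 fell, with a list median of 0.01. Hsp90aa1 read 42798, 35414 and 39803 on the palmitate arrays and 20006, 26706 and 25636 on the BSA arrays, without overlap. The co-activators Ncoa1 (-0.56 ± 0.25) and Ncoa3 (0.46 ± 0.30) did not pass. The repressor gene Ahrr, another AHR target, was below the filter, with 9.7, 238.6 and 18.9 on the palmitate arrays and 43.6, 180.6 and 473.1 on the BSA arrays. Hsp90ab1 and Ptges3 were not analysed here. Scaling to the hybridisation controls ended the calls of Hsp90aa1 (adjusted p = 0.0585) and Relb (0.0757), turned the list median to -0.28 and gave 0 higher and 1 lower. Leaving out BSA replicate 3 ended that of Relb (0.0515), which left 1 call.

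Of 6 tested bHLH-PAS factors, the family of AHR and ARNT, 1 passed, beside 20.2% of all genes. It was the clock factor gene Arntl (BMAL1), at 0.72 ± 0.20 (limma adjusted p = 0.0253). Arntl read 1715, 1437 and 1644 on the palmitate arrays, against 1092, 1028 and 807.1 on the BSA arrays. The hypoxia factor Hif1a was at 0.16 ± 0.16 (adjusted p = 0.533, and -0.14 after scaling to the hybridisation controls). Arnt2, an Arnt relative, and Epas1 were below the filter. The Arntl call ended after hybridisation control scaling (adjusted p = 0.190) and without palmitate 1, palmitate 3, BSA 2 or BSA 3, with adjusted p up to 0.0965.

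Of 13 tested genes described as induced by AHR ligands, 7 rose and 1 fell, beside 7.92% and 12.3% of all genes. The list median was 0.60. The list was written with 4 of the 7 rises known (Ptgs2, Il6, Serpinb2 and Gsta2), so the count is not independent of the data, and 1 fall in 13 is near the 12.3% of all genes called lower. After hybridisation control scaling the list gave 6 higher and 2 lower with a median of 0.30. With probe sets averaged it gave 8 higher and 0 lower of 12, with a median of 1.27 and Mgst1 no longer above the filter. Ereg, an epidermal growth factor receptor ligand, read 15088, 12124 and 15350 on the palmitate arrays and 2085, 3572 and 3980 on the BSA arrays (2.19 ± 0.22, adjusted p = 4.95e-05). All its palmitate values exceeded 3 times the highest BSA value. Ptgs2, the inducible cyclooxygenase, rose by 2.34 ± 0.13, the cytokine Il6 by 1.76 ± 0.21 and the amino acid transporter Slc7a5 by 1.15 ± 0.15 (limma adjusted p = 1.58e-06, 0.000152 and 0.000372). The fall was that of Mgst1, a microsomal glutathione transferase, at -1.92 ± 0.28 (adjusted p = 0.000631), with 710.0, 405.5 and 652.2 on the palmitate arrays and 1508, 2526 and 2668 on the BSA arrays. The quinone reductase gene Nqo1, part of the same AHR battery as Cyp1a1, was at 0.49 ± 0.21 (adjusted p = 0.132), and Nfe2l2, which encodes NRF2, at 0.42 ± 0.15 (adjusted p = 0.0635). Cyp1a2 was below the filter, and Ugt1a6a was not analysed here. The other rises were Gsta2, a glutathione transferase whose close relatives may share its probes, the protease inhibitor Serpinb2 and the growth factor Vegfa. Gsta2 had signals of 1269, 708.3 and 1075 on the palmitate arrays and 67.9, 66.2 and 273.2 on the BSA arrays (3.21 ± 0.55). Serpinb2 had 1109, 958.9 and 722.3 on the palmitate arrays and 109.5, 68.4 and 235.5 on the BSA arrays (2.92 ± 0.47). Both were above the filter of 267.1 only through their palmitate values, so they had to differ to be tested, and their folds rest on dim BSA signals. A filter at the 60th percentile gave 5 higher of 11. Vegfa was at 0.60 ± 0.18. Its call was lost without palmitate 1, palmitate 3 or any 1 BSA array (highest limma adjusted p 0.121) and after hybridisation control scaling (0.276). With its 2 probe sets averaged, Vegfa was at 1.40 (limma adjusted p = 0.000279). Ptgs2, Il6, Ereg and Slc7a5 also answer to kinase, NF-kB or amino acid signals, as is known from other cells.

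Of 17 tested targets of the hypoxia-inducible factors, which use ARNT as their partner, 7 rose and 0 fell, with a median of 0.44. Among all genes, 7.92% were called higher and 12.3% lower. Ndrg1, a hypoxia- and stress-induced gene, rose by 1.28 ± 0.17 (adjusted p = 0.000319), hexokinase Hk2 by 1.09 ± 0.17 (0.000982), the glucose transporter Slc2a1 by 0.88 ± 0.14 (0.00121) and Ddit4, an inhibitor of mTORC1, by 1.23 ± 0.25 (0.00461). The glycolytic genes Pgk1 (0.09 ± 0.13), Ldha (0.11 ± 0.12) and Aldoa (0.10 ± 0.12) and the kinase Pdk1 (-0.15 ± 0.20) did not pass. Vegfa, P4ha2 (0.56 ± 0.17) and Pfkl (0.67 ± 0.21) made up the 7. The last 2 lost their calls without any 1 palmitate array, BSA 2 or BSA 3, with a highest adjusted p of 0.137 for P4ha2 and 0.160 for Pfkl. The count was 4 without palmitate 1, palmitate 3, BSA 2 or BSA 3, and it was 4 higher and 1 lower after hybridisation control scaling.

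No other listed cytochrome P450 gene passed the test, but most lay below the filter and the tested ones were dim. The list took symbols made of Cyp, a number, letters and a number, so Cyp51 and P450 genes with other names were not counted. Of 59 such genes on the array besides Cyp1b1 and Cyp1a1, 51 lay below the filter. Of the 8 tested 0 passed and 1 had an unadjusted p under 0.05 (limma, median -0.05). That gene was Cyp4v3, named after its values were seen, at -1.24 ± 0.47 (limma adjusted p = 0.0883). It read 107.5, 333.0 and 252.1 on the palmitate arrays and 403.1, 657.4 and 450.4 on the BSA arrays. Cyp4v3 was above the filter only through its BSA values. The count was 1 lower after hybridisation control scaling and 1 lower without palmitate replicate 2. Group mean signals of the 8 tested genes ran from 230.9 (Cyp4v3, palmitate) to 588.3 (Cyp2c29, palmitate). A count of 0 of 8 dim genes, beside 20.2% of all genes called, does not show that the fall was particular to Cyp1b1.

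**Figure D3:**
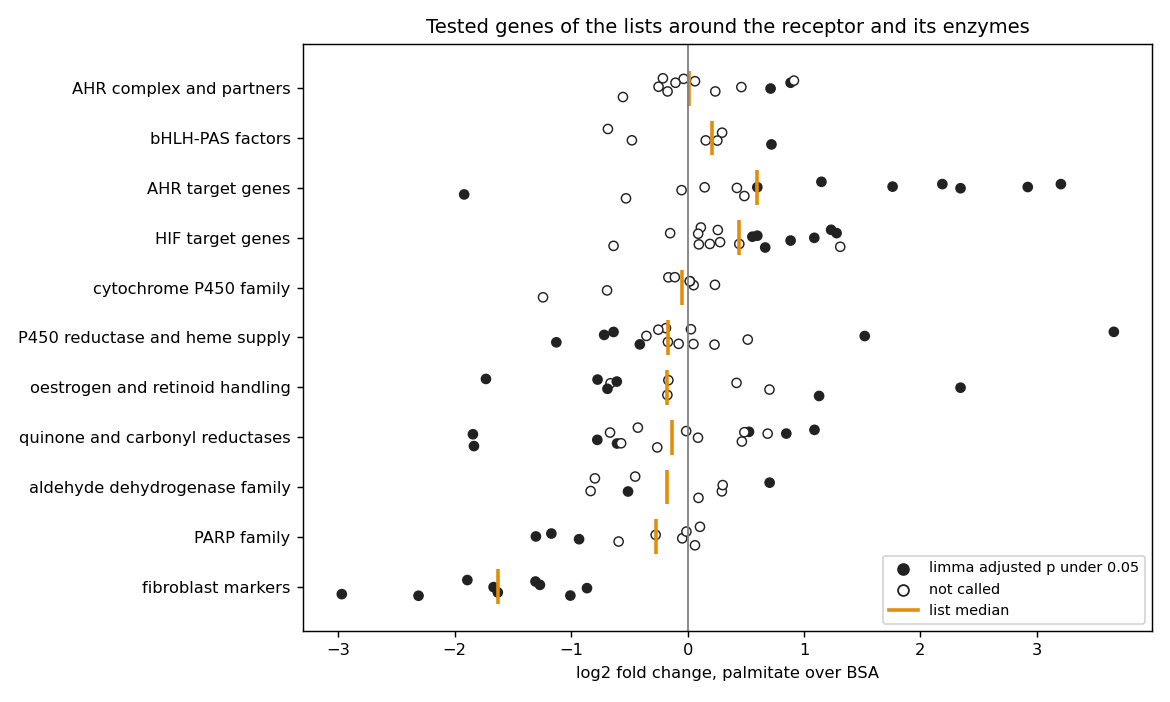
Log2 fold change, palmitate over BSA, of every tested gene of the 10 lists and of the fibroblast markers, filled where limma's adjusted p was under 0.05, with an orange line at each list median. AHR target genes have a median of 0.60 and fibroblast markers a median of -1.63, with all 9 tested fibroblast markers filled.

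The list of electron supply to P450 enzymes and of heme synthesis and breakdown gave 2 higher and 4 lower of 15 tested. Among all genes, 7.92% were called higher and 12.3% lower. The rises, and the fall of Blvra, were in heme breakdown. The called genes of electron supply or heme synthesis, Cyb5a, Cyb5r3 and Fech, were lower. Heme oxygenase Hmox1 rose by 3.66 ± 0.22 (adjusted p = 1.68e-06), a rise already known when the list was written, and the biliverdin reductase Blvrb by 1.52 ± 0.21 (0.000482). Blvra, the other biliverdin reductase, fell by 1.13 ± 0.18 (0.00110), with 891.1, 965.0 and 1015 on the palmitate arrays and 2197, 2192 and 1889 on the BSA arrays. Ferrochelatase Fech fell by 0.64 ± 0.15 (0.0125), cytochrome b5 (Cyb5a) by 0.72 ± 0.18 (0.0159) and its reductase Cyb5r3 by 0.41 ± 0.13 (0.0391). Alas1, the rate-limiting enzyme of heme synthesis, was at 0.03 ± 0.22. Por, the main electron donor, was not analysed here. Averaging all probe sets of a gene ended the calls of Fech (-0.13, adjusted p = 0.734) and Cyb5r3 (-0.04, adjusted p = 0.905). The Cyb5a call was lost without palmitate 3, BSA 2 or BSA 3 (adjusted p up to 0.0818) and the Cyb5r3 call without any single array (up to 0.139). The list count was 4 without BSA 2 or BSA 3.

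Of 11 tested enzymes and carriers next to CYP1B1 in oestrogen, retinoid and arachidonate handling, 2 rose and 4 fell, beside 7.92% and 12.3% of all genes. The 17-beta-hydroxysteroid dehydrogenase genes split. Hsd17b12, which also elongates fatty acids, rose by 1.13 ± 0.16 (adjusted p = 0.000445), while Hsd17b11 of lipid droplets fell by 1.73 ± 0.27 (0.000875), Hsd17b4 of peroxisomes by 0.77 ± 0.17 (0.00778) and Hsd17b10 of mitochondria by 0.61 ± 0.18 (0.0348). Ephx1, the microsomal epoxide hydrolase that acts on the epoxides P450 enzymes make, fell by 0.69 ± 0.14 (0.00631), with 6436, 7832 and 5919 on the palmitate arrays and 10618, 11324 and 10377 on the BSA arrays. Ptgs2 was the other rise. Leaving out any single array but palmitate 2 ended the Hsd17b10 call, at an adjusted p of up to 0.124.

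Among related oxidoreductases, 3 of 16 tested quinone and carbonyl reductase genes rose and 4 fell, beside 7.92% and 12.3% of all genes. The carbonyl reductase Cbr2 fell by 1.84 ± 0.17 (adjusted p = 2.30e-05), with 1794, 1629 and 2064 on the palmitate arrays and 7244, 6684 and 5656 on the BSA arrays. The flavin mono-oxygenase Fmo1 fell by 1.84 ± 0.18 (4.14e-05), with 1278, 1278 and 1146 on the palmitate arrays and 3697, 5369 and 4363 on the BSA arrays. These were the lowest values of that list, and neither gene's groups came near each other. Thioredoxin reductase Txnrd1 rose by 1.09 ± 0.13 (0.000186) and Cbr3 by 0.85 ± 0.18 (0.00580). Cbr1 (-0.78 ± 0.20), the quinone reductase Cryz (-0.61 ± 0.19) and monoamine oxidase Maoa (0.53 ± 0.16) also passed, and Nqo2 (-0.57 ± 0.23, adjusted p = 0.110) did not. The calls of Cbr1, Cryz and Maoa each ended without BSA 2, BSA 3 or palmitate 3, which left 4 calls in the list. Each also ended without further single arrays, with adjusted p over all of these up to 0.0646, 0.124 and 0.129. The Cryz call also ended with its 2 probe sets averaged (-0.34, adjusted p = 0.240) and with equal medians, 75th percentiles or quantiles (up to 0.0605). Those of Cbr3 (0.0660) and Maoa (0.357) ended after hybridisation control scaling, at 1 higher and 7 lower.

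In the aldehyde dehydrogenase family, 1 rose and 1 fell of 8 tested besides Aldh3a1, beside 7.92% and 12.3% of all genes. Aldh18a1, a proline synthesis enzyme, rose by 0.70 ± 0.14 (adjusted p = 0.00555), and mitochondrial Aldh2 fell by 0.51 ± 0.16 (0.0381). Aldh3a2, of the same subfamily as Aldh3a1, was at 0.09 ± 0.17, with 1553, 1641 and 1539 on the palmitate arrays and 1497, 1479 and 1458 on the BSA arrays, and Aldh3b1 was at -0.45 ± 0.25. The remaining tested genes, named after their values were seen, did not pass. Aldh6a1 (-0.83 ± 0.28, adjusted p = 0.0570) and Aldh7a1 (-0.80 ± 0.27, adjusted p = 0.0571) were lower without overlap. Aldh4a1 (0.29 ± 0.25) and Aldh9a1 (0.30 ± 0.19) were higher with overlap. Aldh2 lost its call without each single array except palmitate 2 (highest adjusted p 0.142) and with equal medians (0.0529), and Aldh18a1 lost it after hybridisation control scaling (0.113), which gave 0 higher and 4 lower.

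Of 9 tested genes of the PARP family, to which TIPARP belongs, 3 fell and 0 rose, beside 12.3% and 7.92% of all genes. Parp14 fell by 1.30 ± 0.17 (adjusted p = 0.000286), Parp9 by 1.17 ± 0.15 (0.000270) and Parp12 by 0.93 ± 0.14 (0.000644), and all 3 are known as interferon-inducible. Parp12, like TIPARP a mono-ADP-ribosyltransferase, read 3955, 4169 and 4066 on the palmitate arrays and 7503, 7420 and 8364 on the BSA arrays. Parp1, the founding member, was at 0.06 ± 0.17. These 3 were called without each single array as well.

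Markers of mesenchymal cells moved with Cyp1b1. Of 12 fibroblast markers 9 passed the filter, and 9 of these fell, beside 12.3% of all genes called lower, with a median of -1.63. Among them Pdgfra read 276.0, 224.3 and 293.0 on the palmitate arrays and 614.0, 858.9 and 1100 on the BSA arrays. Pdgfra was above the filter only through its BSA values, so it had to differ to be tested. Their summed signal over all 12 ranged from 57421 to 64483 on the palmitate arrays and from 153007 to 187285 on the BSA arrays. Pdgfrb, a growth factor receptor of mesenchymal cells, read 761.7, 710.3 and 634.6 on the palmitate arrays and 6772, 4683 and 5213 on the BSA arrays (-2.97 ± 0.19, adjusted p = 2.45e-06). The collagen gene Col1a1 was at -2.31 ± 0.19 (1.05e-05), the collagen gene Col3a1 at -1.89 ± 0.15 (8.90e-06) and the matrix protein gene Postn at -1.31 ± 0.15 (0.000129). The Fbln1 call ended without BSA 2 (adjusted p = 0.0544). Lum, Thy1 and Tcf21 were below the filter, Lum with signals of 6.1 to 75.4 on the palmitate arrays and 17.8 to 56.4 on the BSA arrays. C2C12 cells make many of these genes themselves. Myoblast markers fell for 3 of 7 tested, namely Myod1 (-1.33 ± 0.16, adjusted p = 0.000139), Ncam1 (-1.29 ± 0.18) and Vcam1 (-0.51 ± 0.15). The Ncam1 call ended when its 6 probe sets were averaged (-0.71, adjusted p = 0.0664), and the Vcam1 call without palmitate 2, palmitate 3, BSA 2 or BSA 3 (adjusted p up to 0.134). The summed signal of the myoblast markers ranged from 22364 to 23774 on the palmitate arrays and from 31759 to 39101 on the BSA arrays. The filter was passed by 0 of 6 endothelial markers, 2 of 6 leukocyte markers and 1 of 5 adipocyte markers, of which 0 were called and 0 had an unadjusted p under 0.05 (limma). The part of mesenchymal or unfused cells in the Cyp1b1 difference was not tested.

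**Figure D4:**
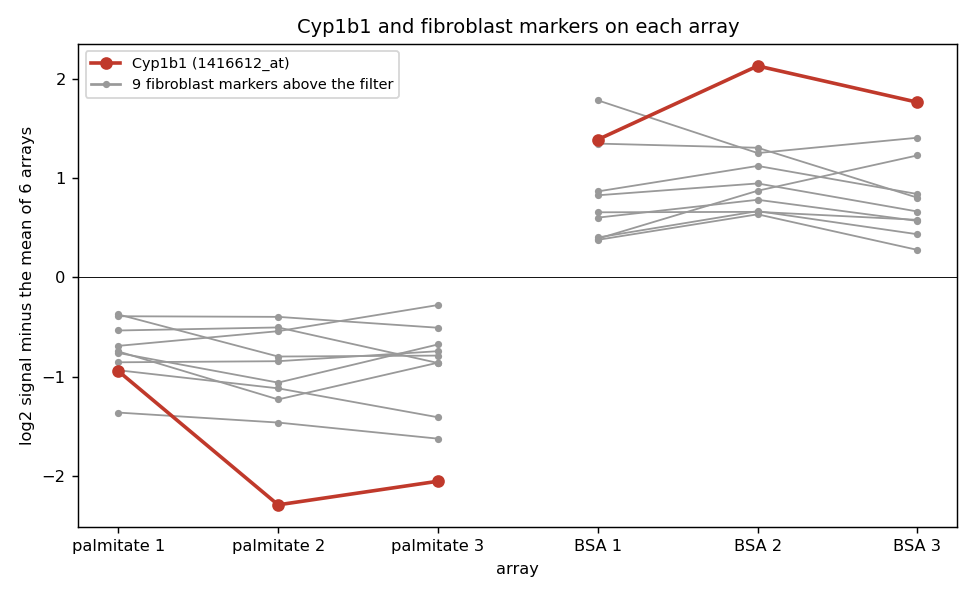
Log2 signal minus its mean over the 6 arrays for Cyp1b1 (1416612_at, red) and for the 9 fibroblast markers above the filter (grey), with the palmitate arrays on the left and the BSA arrays on the right; lines join the values of 1 gene within a group, and replicates have no order. All 10 genes lie under 0 on the palmitate arrays and above 0 on the BSA arrays.

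The genes whose log2 signal ran most like that of Cyp1b1 over the 6 arrays were Sp100 (Pearson r = 0.998), a nuclear body protein, Postn (0.997), Ddx60 (0.996) and Mx1 (0.995), both interferon-inducible antiviral genes, then Chek2 (0.994), Tanc1 (0.993), Lrrk1 (0.993) and Ccdc80 (0.993). Mx1 averaged 1193 ± 208.6 on the palmitate arrays and 3169 ± 228.9 on the BSA arrays, and the matrix protein gene Ccdc80 averaged 2909 ± 700.5 on the palmitate arrays and 9366 ± 225.0 on the BSA arrays (signals, SD, n = 3 each). Most opposite were Ppme1 (-0.997), nucleolin Ncl (-0.996), Kdm4c (-0.996), the calcium-binding chaperone Calr (-0.996), Chac1 (-0.995), spermidine synthase Srm (-0.995), Gcc1 (-0.994) and Adnp2 (-0.993). Of 7930 genes, 680 had an r above 0.9 and 482 an r under -0.9, so many genes that separate the groups share this pattern. The genes most like Ahr, which does not separate the groups, were Vamp4 (0.994), Tmem50b (0.993), beta-catenin Ctnnb1 (0.987), Thrsp (0.981) and Hoxa9 (0.979), with 140 genes above 0.9. Each r is a description over the same 6 arrays.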

How the data were processed

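Palmitate and BSA myotubes were measured on 3 Affymetrix mouse 430A 2.0 arrays each. The authors deposited linear signal intensities, and MAS 5 is the software that the submitters' processing notes name. Its settings are not given in the sources used here. On every array the 2% trimmed mean lay between 1500.5 and 1500.56, so the authors' values were already scaled, which hides a shift shared by most transcripts. Neither detection calls nor scan dates were used. Probe sets were named from the platform annotation only where it gave 1 symbol (20380 of 22626; 691 had several, 1555 none), and 0 symbols changed against RefSeq.

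Signals were log2 transformed with no offset, and those whose mean log2 signal exceeded the 40th percentile were tested (13575). The 2 groups were compared with limma (version 3.58.1, R 4.3.3) using lmFit and eBayes with trend. P-values were two-sided and adjusted by Benjamini-Hochberg over the 13575, at a threshold of 0.05; errors of probe sets below the filter come from the same fit on all probe sets. The fit was tested on simulated data. The precision is limited by the number of arrays.

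The members and lists were chosen with earlier results of these data known. Named list genes were the 4 with the smallest p among the called genes of each list and 15 fixed names where measured, plus, chosen after their values were seen, those that counts of 5 or fewer, unchanged relatives or examples required (such as Mgst1, Cyb5a, Cyb5r3, Hsd17b4, Hsd17b10, Cbr1, Cryz, Maoa, Cyp4v3, Alas1, Ncoa1, Ncoa3, Pgk1, Ldha, Aldoa, Pdk1, Aldh3a2, Aldh3b1 and Parp1, and the genes named among the remaining calls and the cell type markers). Alternatives covered scaling (medians, 75th percentiles, quantiles, hybridisation controls), an offset of 50, no filter and the 60th percentile, no trend, averaged probe sets, a replicate block and leaving out each array.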

Additional observations from a re-analysis of the deposited data

How the results depend on the processing

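Results were recomputed under 10 alternative settings and without each array. Averaging all probe sets of a gene moved Cyp1b1 to -2.17, Ahr to 1.04 and Arnt to 0.19, since dim probe sets then count as much as bright ones. Tiparp moved to 0.69, as its probe sets, all above the filter, differed in size (0.84, 0.73 and 0.51). The same setting gave 1515 calls over 7397 genes in place of 2609 over probe sets. Hybridisation control scaling moved Tiparp to 0.54 and Aldh3a1 to -1.59, turned Hif1a to -0.14, shifted the median probe set to -0.30, and made 475 calls higher and 3004 lower, so that 13.7% were higher, against 1172 and 1437 (44.9% higher) as deposited. It ended the calls of Hsp90aa1 and Relb in the AHR complex list, which then held 1 lower call, and left 0 among bHLH-PAS factors. It gave 1 call among P450 genes and 4 among aldehyde dehydrogenases. Equal medians gave 1 aldehyde dehydrogenase. With replicate number as a block, 1973 probe sets were called, 0 bHLH-PAS factors, 4 HIF targets, 4 quinone and carbonyl reductases and 1 aldehyde dehydrogenase, and 11 of the 52 list and marker genes called lost the call (adjusted p 0.0530 to 0.139). Deviations of same-numbered arrays from their group means correlated at -0.23, -0.13 and 0.01, and no array correlated best with its own number, so this block stands for no known pairing.

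Leaving out 1 array gave 1579 calls (without BSA 2) to 2315, Cyp1b1 -3.94 to -3.27, Aldh3a1 -1.42 to -1.19, Tiparp 0.77 to 0.92, Arnt 0.82 to 1.15, Ahr -0.18 to 0.28 and Cyp1a1 -0.25 to 0.28. Calls were 1 to 2 for the AHR complex, 0 to 1 for bHLH-PAS factors, 7 to 8 for AHR targets and 4 to 6 for HIF targets. They were 4 to 5 for electron supply and heme genes, 5 to 6 for oestrogen and retinoid handling and 4 to 7 for reductases. They were 0 to 1 for P450 genes, 1 to 2 for aldehyde dehydrogenases and 3 to 3 for PARP genes. The 60th percentile filter left 0 of the 8 P450 genes to test. The sign of Ahr and Cyp1a1, near 0, changed among these settings.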
